A study of Mus musculus with 4 samples.

Results

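Sox4, Sox8, Sox9, Sox10, Sox11 and Sox12 were chosen as the SoxE genes (Sox8, Sox9 and Sox10) and the SoxC genes (Sox4, Sox11 and Sox12) of the mouse. The choice was by name and not by any measured value, though earlier results of these data were known. All 6 were found among the 34866 genes listed. RNA was sequenced from otic vesicles, the epithelial sacs that become the inner ear, of C57/BL6 embryos at embryonic day 11.5. There were 2 libraries of Meis2 mutants, titled as knockouts (KO 1 and KO 2), and 2 libraries of wild-type embryos (WT 1 and WT 2). The labels do not name the Meis2 allele, the cells in which the gene was lost, or how many embryos or vesicles made up a library. Nothing in the labels says that the libraries of a genotype came from separate animals, so a p-value reflects the variation among these libraries, part of which may be technical. Values are gene-level TPM, transcript abundances which are scaled per length and per library. TPM allows levels of different genes to be set side by side, but it keeps no sequencing depth. In a dissected tissue, fewer cells of a type and less RNA per cell cannot be told apart.

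Sox proteins are transcription factors that bind DNA through an HMG box. SoxE proteins act in neural crest, glia, cartilage and the early ear: Sox9 takes part in invagination of the otic placode and directs cartilage formation, Sox10 maintains neural crest cells and glia and is also made in the otic epithelium, and Sox8 overlaps with both. SoxC proteins are made in embryonic progenitors and young neurons, where Sox4 and Sox11 act together in neuronal differentiation, and Sox12 is the weaker activator of the class. In the inner ear, Sox4 and Sox11 have been tied to the formation of sensory cells.

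The library labels were first set against Meis2, which encodes a homeodomain transcription factor. Meis2 was at 73.2 and 76.6 TPM in KO and at 79.0 and 88.7 TPM in WT. Its RNA was thus present in all 4 libraries, and a gene-level value does not show whether an exon is missing, so it does not check the labels. Over the whole table, 14496 genes had a mean of at least 1 TPM and were tested with limma on log2(TPM + 1). At an adjusted p under 0.05, 0 genes (0%) passed, against 507 (3.5%) at an unadjusted p under 0.05. The Y-linked gene Eif2s3y was listed at 0 in KO 1 and was at 58.1 TPM in KO 2, against 13.4 and 0.17 TPM in WT, so libraries of 1 genotype differed in Y-linked RNA, and the part of this in the results below was not tested.

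The promoters of the genes are shown because Meis2 binds DNA. Whether their letters bear on the differences between genotypes was not tested. RefSeq windows of GRCm38.p6, from 250 bases before to 50 bases after the RefSeq gene start, matched 4 of the 6 genes. Sox9 and Sox10 had no window. For Sox11 that start is not the one in the gene coordinates given below (27342574, minus strand), and its window lies wholly before the latter. Each is printed on its own strand, 5′ to 3′, with capitals for a CCAAT box on either strand (CCAAT or ATTGG).
Sox4 (chr13:28953650-28953949, minus strand): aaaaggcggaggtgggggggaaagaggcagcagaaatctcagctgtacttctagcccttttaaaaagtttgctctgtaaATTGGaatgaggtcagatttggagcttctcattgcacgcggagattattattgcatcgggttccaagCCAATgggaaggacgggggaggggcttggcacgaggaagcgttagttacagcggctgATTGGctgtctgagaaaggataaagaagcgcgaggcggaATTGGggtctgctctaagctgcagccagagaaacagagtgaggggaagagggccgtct
Sox11 (chr12:27342669-27342968, minus strand): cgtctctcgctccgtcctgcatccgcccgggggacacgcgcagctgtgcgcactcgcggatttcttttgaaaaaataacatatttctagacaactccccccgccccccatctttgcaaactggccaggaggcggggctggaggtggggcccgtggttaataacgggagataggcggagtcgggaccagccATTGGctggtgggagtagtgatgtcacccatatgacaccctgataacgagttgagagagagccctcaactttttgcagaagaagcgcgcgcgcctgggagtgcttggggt
Sox12 (chr2:152397997-152398296, minus strand): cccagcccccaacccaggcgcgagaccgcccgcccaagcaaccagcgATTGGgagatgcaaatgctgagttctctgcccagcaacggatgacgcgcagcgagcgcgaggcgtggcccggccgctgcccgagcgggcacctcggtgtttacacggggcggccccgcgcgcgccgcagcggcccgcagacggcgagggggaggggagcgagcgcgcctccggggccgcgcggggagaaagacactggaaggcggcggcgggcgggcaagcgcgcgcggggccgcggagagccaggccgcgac
Sox8 (chr17:25570637-25570936, minus strand): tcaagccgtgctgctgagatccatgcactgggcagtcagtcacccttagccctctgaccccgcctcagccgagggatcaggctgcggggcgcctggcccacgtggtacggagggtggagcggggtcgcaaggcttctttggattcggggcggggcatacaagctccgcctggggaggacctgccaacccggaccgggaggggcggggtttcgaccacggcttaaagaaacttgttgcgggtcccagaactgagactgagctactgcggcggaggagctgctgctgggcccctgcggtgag

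The CCAAT box was found 4 times in the Sox4 window, 1 time each in those of Sox11 and Sox12, and not in that of Sox8. Of all 32851 RefSeq windows, 37.4% held it. The core letters bound by Meis proteins, TGACAG or CTGTCA, were in 0 of the 4 windows and in 19.2% of all windows. The core AACAAT or ATTGTT, a form of the site bound by Sox proteins, was in 0 of the 4 and in 10.7% of all. A match is a description of these letters, and its absence says only that they are not in this window. The 3 SoxC windows differed in base composition, with 52.0% G and C in Sox4, 58.7% in Sox11 and 76.7% in Sox12, against a median of 52.7% over all windows.

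Ordered by mean TPM over the 4 libraries, Sox4 (165) and Sox11 (163) came first, followed by Sox9 (136), Sox10 (107), Sox12 (67.6) and Sox8 (7.77). Sox4 and Sox11 could not be separated by level, since their ranges overlapped and Sox4 was higher in 1 of 4 libraries. Sox11 was above Sox9 in 3 of 4 libraries, and Sox9 was above Sox10 in 3 of 4. Sox10 and Sox12, and Sox12 and Sox8, did not overlap in any library. The order from top to bottom was the same in KO 2 and WT 1, with Sox11 first and Sox4 next. In KO 1, Sox4 and Sox9 both lay above Sox11, and in WT 2 Sox10 lay above Sox9. Sox8 was lower than Sox12 by 8.70-fold in mean TPM, and it was the lowest of the 6 in every library.

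**Figure D1:**
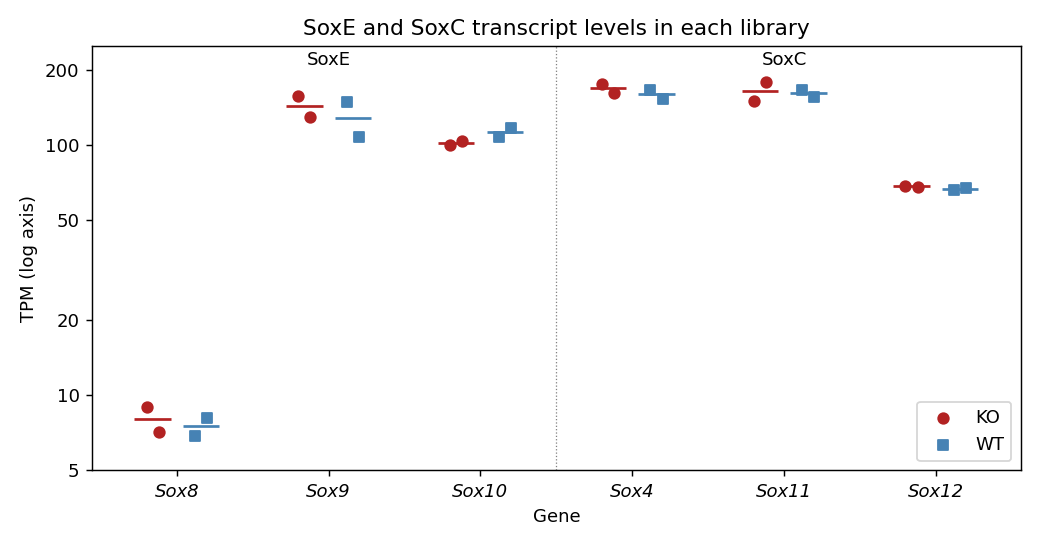
TPM on a log axis for the 3 SoxE and 3 SoxC genes, with a point per library (KO circles, WT squares) and a line at the mean of the 2 libraries. KO and WT points overlap for Sox8, Sox9, Sox4 and Sox11, and Sox10 is the gene that lies lower in both KO libraries, at 99.8 and 104 TPM, against 108 and 118 TPM in WT.

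The 6 genes together reached 661 and 650 TPM in KO and 664 and 611 TPM in WT. They made up 81.7% and 81.5% of the TPM of all 20 Sox genes examined in KO, and 82.8% and 80.9% in WT. Summed SoxE RNA was 266 and 240.8 TPM in KO, against 264 and 234 TPM in WT. Summed SoxC RNA was 395 and 409 TPM in KO, against 400.4 and 377 TPM in WT. The SoxC genes thus held more RNA than the SoxE genes in each of the 4 libraries, and the genotypes overlapped for both sums. The ratio of summed SoxE to summed SoxC TPM was 0.673 and 0.588 in KO, and 0.659 and 0.621 in WT. Both the highest and the lowest ratio were those of KO libraries, so the spread within KO took in the WT values. On the log2(TPM + 1) scale, the SoxE mean minus the SoxC mean was -1.29 ± 0.1497 in KO and -1.28 ± 0.018 in WT (SD, n = 2 each). The difference between the genotypes in this class balance was -0.0085 and is given as a description, with no test.

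**Figure D2:**
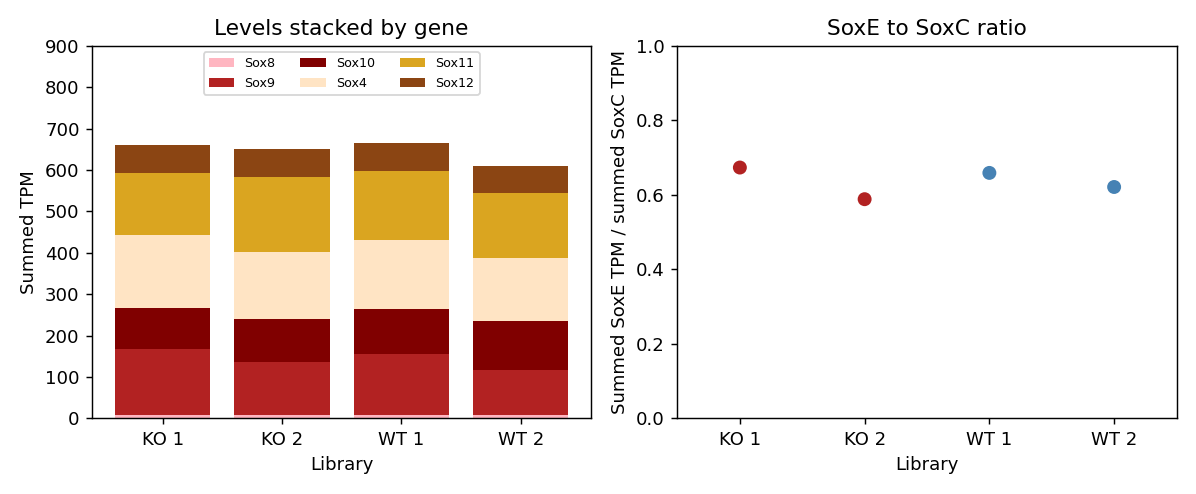
Left, TPM of the 6 genes stacked for each library. Right, the ratio of summed SoxE TPM to summed SoxC TPM, from an axis that starts at 0. The ratio is highest in KO 1 (0.673) and lowest in KO 2 (0.588), with WT 1 (0.659) and WT 2 (0.621) between them.

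None of the 6 genes passed the threshold, and each had a limma adjusted p of 1.00 over all genes tested. Of the 6, 5 had a positive and 1 a negative log2 difference, KO minus WT, where 61.6% of all genes tested had a positive and 38.4% a negative one. KO and WT libraries did not overlap for 2 of the 6, Sox10 (lower in KO) and Sox12 (higher in KO). Over all genes tested, 29.8% did not overlap, 10.5% lower and 19.2% higher in KO, so the share of the 6 was near the background. The median size of the log2 difference over all genes tested was 0.09 without sign, and the median with sign was 0.03.

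Among the SoxE genes, Sox10 (ENSMUSG00000033006.10, chromosome 15, 79154908 to 79165240, minus strand, GRCm38), the regulator of neural crest and glia, was at 99.8 and 104 TPM in KO, against 108 and 118 TPM in WT. Each KO library was lower than each WT library, by little. The means were 102 ± 2.94 TPM in KO and 113 ± 6.58 TPM in WT (SD, n = 2 each). The log2 difference was -0.15 (SE 0.076; 95% interval -0.35 to 0.05; limma adjusted p = 1.00 and unadjusted p = 0.12). The size of this difference was above that of 66.4% of the genes tested.

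Sox9 (ENSMUSG00000000567.5, chromosome 11, 112782224 to 112787760, plus strand), the cartilage regulator, was at 157 and 130 TPM in KO, against 149 and 108 TPM in WT. KO 2 lay below WT 1, so the genotypes overlapped, and WT 2 stood lowest. The log2 difference was 0.17 (SE 0.19; 95% interval -0.32 to 0.66; limma adjusted p = 1.00). Without WT 2 it was -0.06, so its sign rested on that library, and without WT 1 it was 0.40. Among the 6, Sox9 varied most in relative terms over the libraries, with a highest value 1.45 times the lowest.

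Sox8 (ENSMUSG00000024176.10, chromosome 17, 25565892 to 25570686, minus strand), which overlaps in function with the other SoxE genes, was at 8.98 and 7.11 TPM in KO, against 6.87 and 8.12 TPM in WT. KO 1 was highest and WT 1 lowest, with KO 2 and WT 2 between them. The log2 difference was 0.09 (SE 0.17; 95% interval -0.37 to 0.54; limma adjusted p = 1.00). Without KO 1 it was -0.06 and without WT 1 it was -0.02. Sox10 was 11.1 and 14.6 times as abundant as Sox8 in KO, against 15.8 and 14.5 times in WT. Sox9 was 1.57 and 1.247 times as abundant as Sox10 in KO, against 1.37 and 0.920 times in WT, so the balance within the SoxE class also overlapped between genotypes.

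Among the SoxC genes, Sox4 (ENSMUSG00000076431.4, chromosome 13, 28948919 to 28953713, minus strand) was at 176 and 162 TPM in KO, against 167 and 153 TPM in WT. KO 1 was highest and WT 2 lowest, and KO 2 lay below WT 1. The log2 difference was 0.08 (SE 0.083; 95% interval -0.14 to 0.30; limma adjusted p = 1.00). Of the 31-base stretches in Sox4 transcripts, 54.7% also occur in another gene of the annotation. Nearly all of these, 2586 of 2607, lie in Gm26735, a long noncoding RNA on the opposite strand. Gm26735 is not among the genes listed, so it has no level here to set beside Sox4. Neither the annotation behind the values nor whether reads were counted by strand is stated. Whether reads of Gm26735 were counted for Sox4 is therefore unknown, and the Sox4 level is uncertain for this reason. The shared percentage does not measure by how much.

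Sox11 (ENSMUSG00000063632.6, chromosome 12, 27334264 to 27342574, minus strand), which acts with Sox4 in young neurons, was at 150.1 and 179 TPM in KO, against 167 and 156 TPM in WT. The KO libraries were the highest and the lowest of the 4, on either side of both WT libraries. The log2 difference was 0.02 (SE 0.11; 95% interval -0.26 to 0.30; limma adjusted p = 1.00). It was -0.11 without KO 2 and -0.03 without WT 2. With median-of-ratios scaling it was -0.01, a move that the median of all genes, at 0.0028 under that scaling and 0.035 without it, shared. Sox11 was 0.852 and 1.10 times as abundant as Sox4 in KO, against 1.00 and 1.02 times in WT.

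Sox12 (ENSMUSG00000051817.8, chromosome 2, 152393611 to 152398063, minus strand) was at 68.8 and 68.0 TPM in KO, against 66.2 and 67.3 TPM in WT. The KO libraries lay above the WT libraries by a small margin, and all 4 were close together. The log2 difference was 0.03 (SE 0.066; 95% interval -0.14 to 0.21; limma adjusted p = 1.00), the same as the median of all genes tested at 2 decimals. Its range over the 4 libraries was 0.05 on the log2 scale, and 1.41% of the genes tested had a smaller one. Sox12 shares chromosome 2 with Meis2.

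The 95% intervals were narrowest for Sox12, Sox10 and Sox4 and widest for Sox8 and Sox9. They do not show that any of the 6 was the same in KO and WT. Sequence shared between genes touched the other genes less than Sox4: 9.73% of the 31-base stretches of Sox8 occur elsewhere, mostly in its antisense neighbour 2810468N07Rik, and at most 1.34% of those of Sox9, Sox10, Sox11 and Sox12. The neighbour of Sox8, like Gm26735, is not among the genes listed. Sox4 and Sox11 shared 18 such stretches with each other, and Sox9 and Sox10 shared 25.

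**Figure D3:**
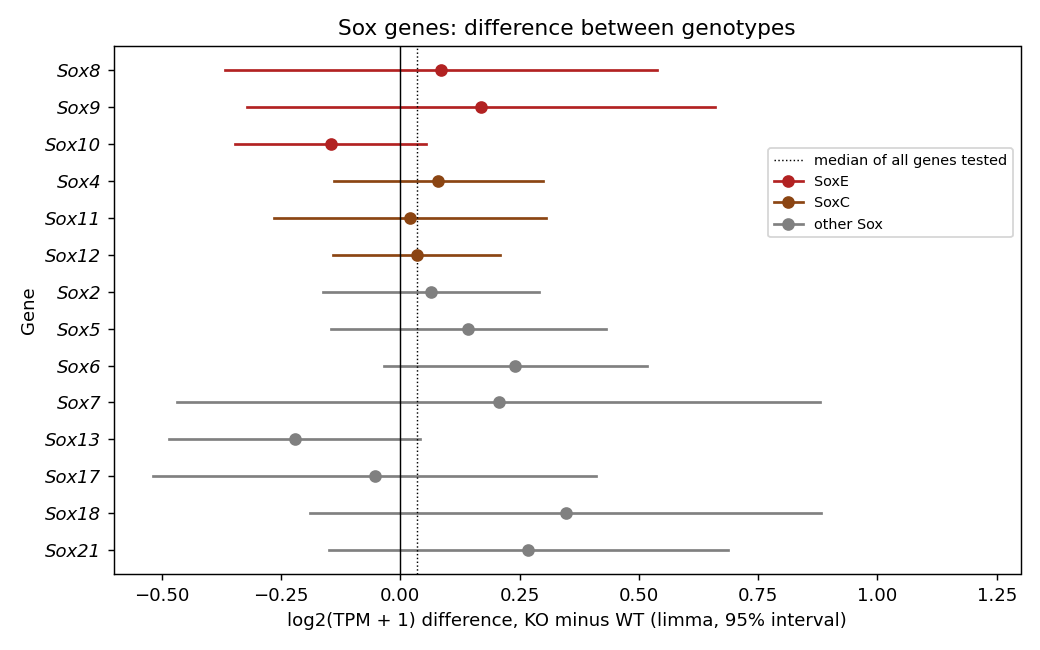
Log2(TPM + 1) difference, KO minus WT, with limma's 95% interval, for the 6 genes (SoxE red, SoxC brown) and the 8 other Sox genes tested (grey). The dotted line is the median of all genes tested, 0.03, and every interval includes 0.

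The rest of the Sox family was set beside the 6 genes. Of 14 other Sox genes, 8 passed the filter of 1 TPM, and 0 passed the threshold. Of these 8, 6 were higher and 2 lower in KO, with a median log2 difference of 0.17, against 0.03 over all genes. KO and WT did not overlap for 5 of the 8, against 29.8% of all genes tested (19.2% higher and 10.5% lower in KO). These were Sox5, Sox6, Sox18 and Sox21, higher in KO, and Sox13, lower in KO.

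SoxD proteins, which lack an activation domain, include Sox5 and Sox6, the partners of Sox9 in cartilage. Sox6 was at 13.1 and 12.9 TPM in KO, against 10.78 and 10.97 TPM in WT, a log2 difference of 0.24 (SE 0.10). Sox5 was at 21.01 and 18.31 TPM in KO, against 17.5 and 17.8 TPM in WT, a difference of 0.14 (SE 0.11) that was 0.048 without KO 1 and 0.24 without KO 2. Both lay higher in each KO library than in each WT library. Sox13, the remaining SoxD gene, was at 31.2 and 33.7 TPM in KO, against 35.8 and 40.4 TPM in WT, a difference of -0.22 (SE 0.10). The SoxD genes thus lay on both sides of 0, as the SoxE genes did.

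Sox2, the SoxB1 gene of prosensory and neural progenitors, was at 48.4 and 53.7 TPM in KO, against 47.9 and 49.5 TPM in WT, a difference of 0.07 (SE 0.086). Its mean of 49.9 TPM placed it below Sox12 and above Sox8. Sox21, a SoxB2 gene, was at 5.65 and 6.83 TPM in KO, against 5.05 and 4.93 TPM in WT. Of the SoxF genes of endothelium, Sox18 was at 18.0 and 12.1 TPM in KO, against 11.6 and 11.2 TPM in WT. The high value was that of KO 1 alone. Sox7 was at 5.87 and 3.82 TPM in KO, against 4.657 and 3.404 TPM in WT. Sox17 was at 4.25 and 4.50 TPM in KO, against 4.07 and 5.14 TPM in WT. The other 6 Sox genes, Sox1, Sox3, Sox14, Sox15, Sox30 and Sry, had means of at most 0.515 TPM.

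Marker lists of the tissues in which SoxE and SoxC genes act were then described beside them. A list's level in a library is the median, over its tested genes, of log2(TPM + 1) minus the gene's mean of the 4 libraries. None of the genes in these lists passed the threshold. The markers of otic epithelium were present, with all 20 tested. They had 17 lower and 3 higher in KO and a median log2 difference of -0.19. Of all genes tested, 38.4% were lower and 61.6% higher in KO, and the counts of every list below stand beside the same shares. KO and WT did not overlap for 10 of the 20, all lower in KO. Over all genes tested, 10.5% did not overlap and were lower, and 19.2% did not overlap and were higher. Lmx1a, a transcription factor of the otic epithelium, was at 59.8 and 60.2 TPM in KO, against 71.8 and 73.9 TPM in WT. Oc90, the main protein of otoconia, was at 561 and 602 TPM in KO, against 912 and 724 TPM in WT. The list lay at -0.10 and -0.06 in KO, against 0.07 and 0.11 in WT, in KO 1, KO 2, WT 1 and WT 2. Sox10 had the same order of libraries as this list, with WT 2 highest, then WT 1, KO 2 and KO 1. The share of all genes tested with this order was not counted. The part of epithelial RNA content in the Sox10 values was not tested.

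The neural crest and Schwann cell precursor list, the other setting of Sox10, had 17 of 18 genes tested. Of these, 10 were higher and 7 lower in KO, with a median log2 difference of 0.06 that was -0.03 without KO 1. Its levels were 0.21 and -0.09 in KO, against -0.01 and -0.12 in WT. KO 1 stood highest for this list, where Sox10 stood lowest. Fabp7, a lipid-binding protein of glial precursors, was at 24.4 and 22.7 TPM in KO, against 21.1 and 15.1 TPM in WT. Gfra3, a neurotrophic factor receptor of crest-derived cells, was at 4.34 and 3.10 TPM in KO, against 4.49 and 7.49 TPM in WT. Summed over the 18 genes, the list was at 254 and 254 TPM in KO, against 249.7 and 241.3 TPM in WT.

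Genes of the cartilage matrix, the best known targets of Sox9, had 12 of 16 genes tested. Of these, 8 were higher and 4 lower in KO, with a median log2 difference of 0.07. KO and WT did not overlap for 4 of the higher and 2 of the lower genes, where 19.2% of all genes tested did not overlap and were higher and 10.5% did not overlap and were lower. Col2a1, the collagen of cartilage, was at 652 and 693 TPM in KO, against 562 and 578 TPM in WT, a log2 difference of 0.24 (SE 0.071). Mia, a secreted cartilage protein, was at 7.44 and 7.69 TPM in KO, against 4.526 and 4.998 TPM in WT, a difference of 0.57 (SE 0.14). Both were higher in each KO library than in each WT library, which was not so for Sox9. Their limma adjusted p over all genes was 1.00.

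The periotic mesenchyme list stands for the tissue around the vesicle in which Sox9 is also made. Of its 16 genes, 14 were higher and 2 lower in KO, where 61.6% of all genes tested were higher. The list had a median of 0.24 that was -0.01 without KO 1 and 0.50 without KO 2. Its levels were 0.37 and -0.11 in KO, against 0.01 and -0.33 in WT, and its summed TPM was 1548 and 1040 in KO, against 1121 and 949 in WT. KO and WT did not overlap for 3 of the higher genes, Lum and Dcn among them, and for 2 lower genes. Over all genes tested, 19.2% did not overlap and were higher, and 10.5% did not overlap and were lower. Lum, a matrix proteoglycan, was at 42.2 and 31.6 TPM in KO, against 24.2 and 15.7 TPM in WT. Dcn, another proteoglycan, was at 10.4 and 15.8 TPM in KO, against 9.003 and 7.584 TPM in WT. Sox9 and Sox4 had the same order of libraries as this list, with KO 1 highest, then WT 1, KO 2 and WT 2. The hindbrain list (levels 0.38 and 0.01 in KO, against 0.01 and -0.42 in WT) had that order too, as had the neural crest list. The hindbrain levels of KO 2 (0.0063) and WT 1 (0.0073) were nearly equal, and the gap between KO 2 and WT 2 in the neural crest list was within its spread between libraries (SD 0.16). Only 5 of the 12 hindbrain genes were tested, with 4 higher and 1 lower in KO and a median of 0.38 (0.25 without KO 1, 0.23 without WT 2, 0.61 without WT 1). That median is the value of Fabp7, which is also in the neural crest list. The hindbrain gene Zic1 was at 146 and 129 TPM in KO, against 106 and 77.2 TPM in WT. Sox9 thus shared its order of libraries with the lists of several tissues, as Sox4 did. The cartilage matrix list had another order, with levels of 0.15 and 0.02 in KO, against -0.02 and -0.07 in WT. In the mesenchyme list, the gap between WT 1 and KO 2 was also within its spread between libraries (SD 0.30). The part of these tissues in the Sox9 values was not tested.

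The neuron list, for the cells in which SoxC proteins act, differed most between libraries of 1 genotype. Its 18 tested genes had 14 higher and 4 lower in KO, with a median of 0.09 (0.92 without KO 1, -0.63 without KO 2, -0.22 without WT 1), and its levels were -0.69 and 0.84 in KO, against -0.42 and 0.28 in WT. Summed, they reached 453 and 1207 TPM in KO, against 549 and 846 TPM in WT. Nhlh2, a neuronal transcription factor, was at 12.1 and 31.4 TPM in KO, against 10.4 and 18.4 TPM in WT. Prph, a neuronal filament gene, was at 9.24 and 10.4 TPM in KO, against 7.28 and 5.96 TPM in WT. Sox11 was, like this list, highest in KO 2 and lowest in KO 1, but WT 1 and WT 2 stood the other way round. Its highest value was 1.19 times its lowest, that of Sox4 1.15 times and that of Sox12 1.04 times, while the summed neuron TPM ran from 453 to 1207 in the same libraries.

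Of the remaining cell types, endothelial genes had 9 of 11 higher and 2 lower in KO, with a median of 0.17 and levels of 0.24 and -0.07 in KO, against -0.10 and -0.06 in WT. KO and WT did not overlap for 6 of the higher and 1 of the lower genes, against 19.2% and 10.5% of all genes tested. Emcn, an endothelial surface protein, was at 30.7 and 27.4 TPM in KO, against 22.4 and 23.2 TPM in WT. Sox8 had the same order of libraries as the endothelial list, and Sox18 was also highest in KO 1. The list levels of WT 2, KO 2 and WT 1 differed by less than its spread between libraries (SD 0.16), so only KO 1 stood apart. Erythroid genes had 2 of 10 higher and 8 lower, with a median of -0.17 (0.48 without WT 2) and levels of -0.19 and 0.01 in KO, against -0.54 and 0.70 in WT. The globin Hbb-bs, 1 of the 2 higher genes, was at 292 and 237 TPM in KO, against 152 and 202 TPM in WT. It was the 1 gene of this list for which KO and WT did not overlap. Hbb-y, a more abundant globin among the 8 lower genes, was at 5692 and 6447 TPM in KO, against 4715 and 10276 TPM in WT. The orders of Sox10, Sox11 and Sox12 were not those of either list. Sox12 had the same order as the list of other Sox genes, and Sox11 that of no list. For none of these shared orders was the share of all genes tested counted, so they are descriptions only.

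**Figure D4:**
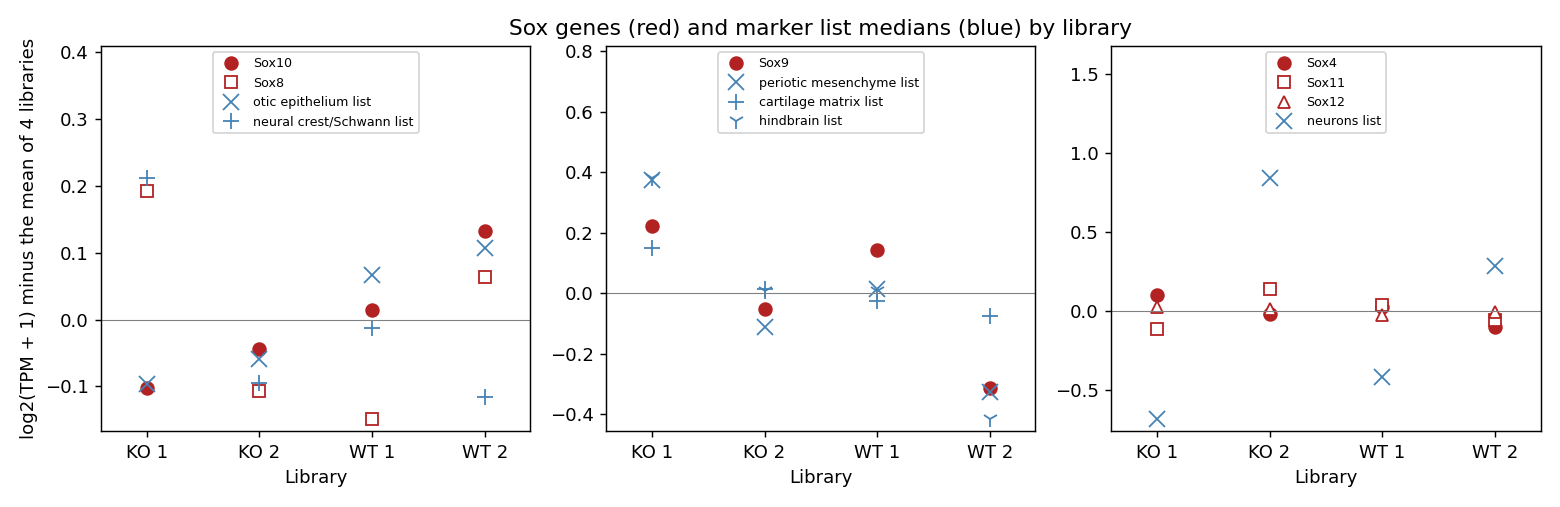
Log2(TPM + 1) minus the gene's mean of the 4 libraries, for Sox genes (red) and for the median of marker lists (blue), by library. The panels differ in scale. Sox10 and the otic epithelium list fall in the same order of libraries, as do Sox9 and the mesenchyme and hindbrain lists, while the neuron list ranges from -0.69 in KO 1 to 0.84 in KO 2 with the SoxC genes near 0.

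Likeness of pattern was measured as the root mean square difference in log2(TPM + 1), each gene centred on its own mean, over the 4 libraries and 13503 coding genes. The nearest to Sox4 were Phf14 (0.0028) and Phyhip (0.0058), and to Sox11 Plekhm3 (0.0057) and Synj2 (0.0089). The nearest to Sox12 were Ticrr (0.0019) and Med21 (0.0033). Among SoxE genes, the nearest to Sox10 were Ssc4d (0.0080) and Gpbp1l1 (0.0092), to Sox9 Lekr1 (0.014) and Tmem255a (0.017), and to Sox8 Zfp74 (0.016) and Rab3il1 (0.018).

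The nearest among the other 5 was a SoxC gene for every member, SoxE or SoxC. It was Sox12 for Sox4, Sox11, Sox8 and Sox10, and Sox4 for Sox12 and Sox9. Sox12 had a range of 0.05 on the log2 scale, so this measure places it near any gene that varies little. The nearest members thus do not set the SoxC class apart. Sox9 and Sox10 differed by 0.28. Of coding genes, 88.2% were nearer to Sox10 than Sox9 was, and 72.0% nearer to Sox9 than Sox10 was. Sox4 and Sox11 differed by 0.13, with 55.4% of coding genes nearer to Sox4 than Sox11 was, and 46.1% nearer to Sox11 than Sox4 was. The nearest pair among the 6 was Sox4 and Sox12, at 0.07, with 18.3% of coding genes nearer to Sox4 and 26.8% nearer to Sox12. These values describe 4 libraries and carry no test.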

How the data were processed

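RNA was measured in 2 Meis2 mutant and 2 wild-type libraries of mouse otic vesicles. The authors deposited gene-level TPM; Salmon 0.9.1 and GRCm38 are named in the submitters' processing notes, and neither the annotation release nor the summing per gene is stated. Each library summed to 1000000 TPM. Multiplied by 4 (KO 1, WT 1, WT 2) or by 3 (KO 2), 100% of nonzero values were whole in units of the last decimal place of an unaveraged value (tolerance 0.02), so they look like means of several values. Depth is unknown, so no counting interval is given.

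IDs were matched by number to GENCODE M21, which named 34652 of 34866. The 14496 genes averaging 1 TPM or more were tested by limma 3.58.1 (R 4.3.3) after log2(TPM + 1) transformation, a scale that understates changes of low genes. Genotype was the single term, the variance was moderated with a trend on the mean, p-values were two-sided with Benjamini-Hochberg adjustment, and the threshold was 0.05. The fit was tested on 10 simulated sets with 200 changed genes each. It called 36.3% of genes changed by a log2 of 1 and 74.6% of those changed by 2. False calls averaged 7.5 per set. A count of 0 genes past the threshold thus does not show that no gene changed. An exact test of 2 libraries against 2 cannot give a p below 0.333.

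The members, gene lists and tests were chosen with earlier results of these data known. Genes named are the 6 members, Meis2, the other Sox genes tested, the 2 coding genes nearest in pattern to each member, and from every list the 2 genes of smallest p (for hindbrain, endothelium and erythroid cells, 1 gene). Other genes, such as Eif2s3y, were named after their values were seen. Stretches of 31 bases shared between genes were counted on both strands of the GENCODE transcripts. Alternatives were other pseudocounts (0.1 and 5 TPM), other filters (none, or 5 TPM), quantile normalization, median-of-ratios scaling, a fixed prior variance without the trend, a replicate block, and leaving out each library.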

Additional observations from a re-analysis of the deposited data

How the results depend on the processing

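None of the 6 Sox genes passed the threshold under any of the 12 alternatives, and the smallest limma adjusted p of any was 0.61. Leaving out a library in turn, the log2 difference of Sox10 ranged from -0.20 to -0.09, that of Sox12 from 0.02 to 0.05, that of Sox4 from 0.02 to 0.14, that of Sox9 from -0.058 to 0.40, that of Sox8 from -0.064 to 0.24 and that of Sox11 from -0.11 to 0.15. The signs of Sox10, Sox12 and Sox4 were kept in all 12, and that of Sox11 also turned with median-of-ratios scaling (-0.014), which moved the median of all genes from 0.035 to 0.0028. The difference of Sox12 was 0.00043 with that scaling and 0.0055 with quantile normalization, so its sign was barely kept. The SoxE minus SoxC difference ranged from -0.11 to 0.097 without a library. The genes past the threshold were 0 except without KO 1 (2) and without KO 2 (10), and 0 of these were among the 6. The causes were not tested. TPM keeps no depth, so what depth limits is unknown.

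Libraries of the 2 genotypes share only a number. With the replicate block 0 genes passed, and 1178 had an unadjusted p under 0.05, against 507 without it. The deviations of same-numbered libraries correlated at 0.42 across genes. With the block, the unadjusted limma p went from 0.41 to 0.069 for Sox9, from 0.12 to 0.059 for Sox10 and from 0.38 to 0.20 for Sox4. It changed less for Sox12 (0.63 to 0.58) and Sox11 (0.86 to 0.85), and was 0.64 both ways for Sox8.

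Without a library in turn, the list medians ranged from 0.064 to 0.19 for other Sox genes, -0.030 to 0.25 for neural crest, 0.015 to 0.19 for cartilage, -0.23 to -0.16 for otic epithelium, 0.026 to 0.37 for endothelium, 0.23 to 0.61 for hindbrain, -0.63 to 0.92 for neurons, -0.014 to 0.50 for mesenchyme and -0.79 to 0.48 for erythroid genes. With a pseudocount of 5 TPM the other Sox median was 0.12 and the otic median -0.16, with quantile normalization they were 0.12 and -0.23, and with median-of-ratios scaling the otic median was -0.23. Of genes outside the 6, signs turned without a library for Nhlh2 (-0.18 to 1.13), Sox2 (-0.0077 to 0.14), Sox7 (-0.049 to 0.46), Sox17 (-0.19 to 0.083), Zfp74 (-0.074 to 0.20), Rab3il1 (-0.075 to 0.26), Lekr1 (-0.027 to 0.39), Tmem255a (-0.035 to 0.41), Plekhm3 (-0.10 to 0.16) and Synj2 (-0.13 to 0.14). Signs near 0 also turned with the common shift of all genes under median-of-ratios scaling for Synj2 (-0.022), Ticrr (-0.0014) and Med21 (-0.0051), and under quantile normalization (median of all genes 0.00082) for Plekhm3 (-0.012), Synj2 (-0.034), Ticrr (-0.012) and Med21 (-0.0022).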
